A study of Rattus norvegicus with 14 samples.

Results

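The strongly enriched PPFP peaks were the sites at which ChIP-seq DNA of the PAX8-PPARG fusion protein (PPFP) stood at least 10-fold above background. They were chosen by that value alone, and 4749 of the 20277 peaks in the list reached it (23.4%). The share follows from the threshold, and nothing is read from it. They are called strong peaks here, and the other 15528 are called weaker peaks.

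PPFP joins most of PAX8, the paired-box transcription factor that drives thyroid development and thyroid gene expression, to PPARG, the nuclear receptor that directs fat cell differentiation and is the target of pioglitazone. The human fusion gene is found in a share of follicular thyroid cancers, and its product can in principle contact DNA through its PAX8 part, its PPARG part or both. In ChIP-seq, DNA crosslinked to the protein is pulled down and sequenced, and a peak is a stretch where the overlapping fragments, called the pileup, exceed those of a local background. The summit is the base with the highest pileup, and the fold enrichment compares pileup with background at that base.

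PPFP ChIP was performed in PCCL3 cells, a rat thyroid follicular cell line, which stably expressed human PPFP with a Myc tag and were treated with 1 μM pioglitazone for 16 hours. The protein was immunoprecipitated with an antibody to the Myc tag, and input DNA of PPFP cells under the same treatment was the background sample. There was 1 ChIP library and 1 input library, without a ChIP of cells that carry the empty vector (EV cells) or of PPFP cells without pioglitazone, so binding cannot be compared between conditions and no difference has a replicate check. RNA-seq of separate cultures, with 3 libraries of PPFP cells and 3 of EV cells under pioglitazone, served only to check the cells.

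The RNA libraries had totals of between 27758562 and 30915433 counts on genes in PPFP cells and between 27711659 and 35240176 in EV cells. All 10 thyroid follicular markers examined had counts in every PPFP library, among them thyroglobulin (Tg), the hormone precursor protein, at 8068 ± 333 CPM (SD, n = 3), which is its count scaled to the total of the library. Ptprc of leukocytes, Pecam1 of endothelium and Calca of C cells had a count of 0 in all 3 libraries, and Adipoq of adipocytes was at 2.30 ± 0.566 CPM (SD, n = 3). Pparg, part of the fusion, was at 47.0, 57.0 and 59.8 CPM in PPFP cells and at 1.59, 2.91 and 1.37 CPM in EV cells. Pax8, the other part, was at 500.04, 535 and 527 CPM in PPFP cells and at 716, 819 and 714 CPM in EV cells. Neither gene overlapped between the groups, with Pparg higher and Pax8 lower in PPFP cells. Such separation was common, since of 9821 genes with a mean of at least 1 CPM in either group, 64.3% did not overlap (24.0% higher and 40.4% lower in PPFP cells), so it marks neither gene out. The fusion is a human transgene and the counts are on rat genes, where endogenous and fusion transcripts cannot be told apart, so neither value measures its level.

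Fold enrichment among the strong peaks had a median of 13.7 and quartiles of 11.5 and 17.6, and ended at 86.7. Most were near the threshold: 1523 were between 10 and 12, 1384 between 12 and 15, and 1039 between 15 and 20. There were 636 between 20 and 30, 128 between 30 and 40 and 39 at 40 or above. The weaker peaks had a median of 5.99. The threshold cut through a continuous range. The 3 strong peaks just inside it were chr10:85964440-85964848 at 10.0028, chr10:72061835-72062801 at 10.0041 and chr13:83134004-83134553 at 10.0041 (rn4). The 3 weaker peaks just outside it, on chromosomes 1, 13 and 14, were each at 9.99614.

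The pileup and background behind each fold were recovered from the fold and its p value, because the fold is the pileup plus 1 divided by the background plus 1. All 20277 pileups came out as whole reads. At the summits of strong peaks the pileup ran from 17 to 259 reads with a median of 33, and at those of weaker peaks from 6 to 169 with a median of 13. The median background was the same in both sets, 1.33 reads, scaled to the ChIP library. These values are of the measure that chose the strong peaks and describe it.

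A low background let fewer reads pass. A fold of 10 took 17 reads at the lowest background of 0.723, 23 at the median and 164 at 15.5, the highest background under a strong peak. Of the weaker peaks, 4208 (27.1%) had 17 reads or more, and 142 (0.914%) had at least the strong median of 33. The weaker peak with the most reads, chr14:4654143-4654720, chosen here after its value was seen, held 169 reads over a background of 22.6 and reached a fold of 7.21. The strong and weaker peaks were therefore separated by neither pileup nor background alone.

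**Figure D1:**
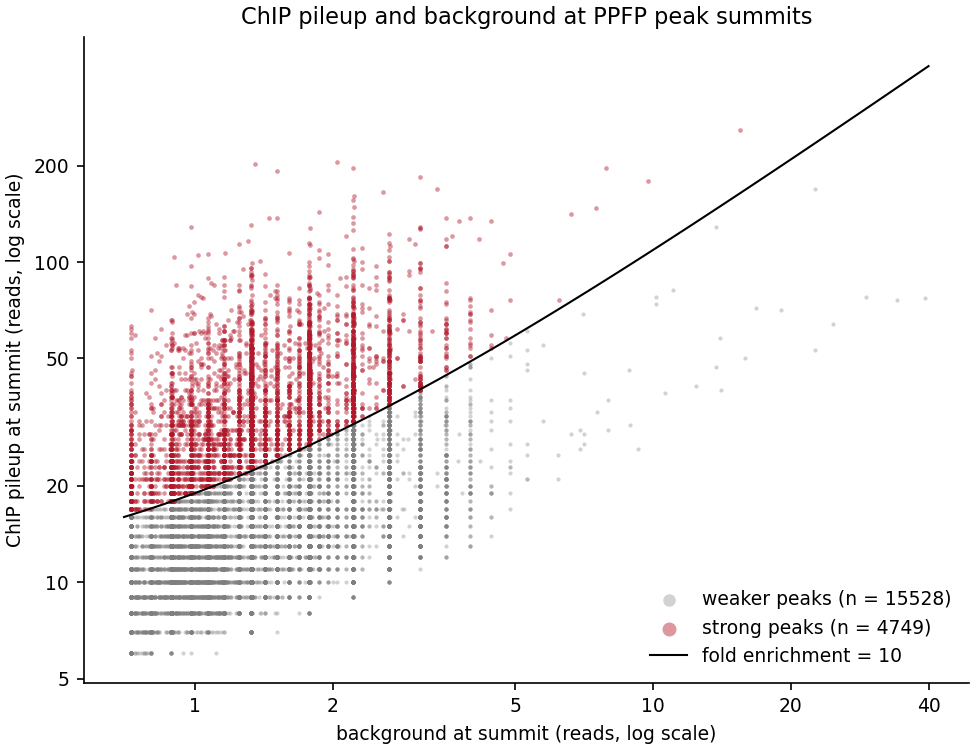
ChIP pileup at the summit (reads, log scale) against background at the same base (reads, log scale) for the 4749 strong and 15528 weaker PPFP peaks, 1 point a peak. The line marks a fold of 10 and rises from 17 reads at a background of 0.723 to 164 reads at 15.5, so peaks of equal pileup lie on both sides of it.

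The largest fold was at chr2:191353773-191354620, where 203 reads stood over a background of 1.35, a fold of 86.7. It was followed by chr19:51043774-51044975 at 76.8 (192 reads over 1.51), chr16:81141868-81142688 at 68.0 (206 reads over 2.05) and chr18:56530885-56532573 at 65.7 (129 reads over 0.979). The peak at chr4:171487582-171488745 reached 61.6 and the one at chr4:30258139-30259404 reached 56.7. The next were chr10:102213046-102213592 at 56.3, chr12:32358985-32360037 at 55.3, chr1:190161369-190162601 at 54.9 and chr2:189511209-189512122 at 52.6. These 10 peaks lay on 8 chromosomes, with pairs on chromosomes 2 and 4. All had 104 reads or more, over backgrounds of 0.899 to 2.21. Their widths ranged from 547 to 1689 bases, and the nearest other strong summit was 8810 bases away or farther.

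Strong peaks were wide. Their median width was 565 bases (95% order-statistic interval 558 to 571), with quartiles of 447 and 718 and a range of 231 to 2392. The weaker peaks had a median of 299 bases (297 to 301) and a range of 201 to 1771. Their 10th percentile was 202, so many lay at or near the lowest width in the list. The ratio of the medians was 1.89, and the intervals, here as elsewhere, cover counting error only. Strong peaks covered 2903900 of the 8042644 bases under peaks (36.1%) and held 44.6% of the summit pileup. Width and fold come from the same comparison of ChIP with input, so this difference describes the peaks and was not tested.

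Width rose with fold within the strong peaks. The median was 466 bases at a fold of 10 to 12, 534.5 at 12 to 15, 618 at 15 to 20, 737 at 20 to 30, 809 at 30 to 40 and 919 at 40 or above. There was no step at the threshold, since the weaker peaks at 8 to 10 had a median of 401. Among the strong peaks, 304 (6.40%) were over 1000 bases wide, against 25 (0.161%) of the weaker peaks. At the other end, 54 strong peaks (1.14%) were no wider than the weaker median.

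**Figure D2:**
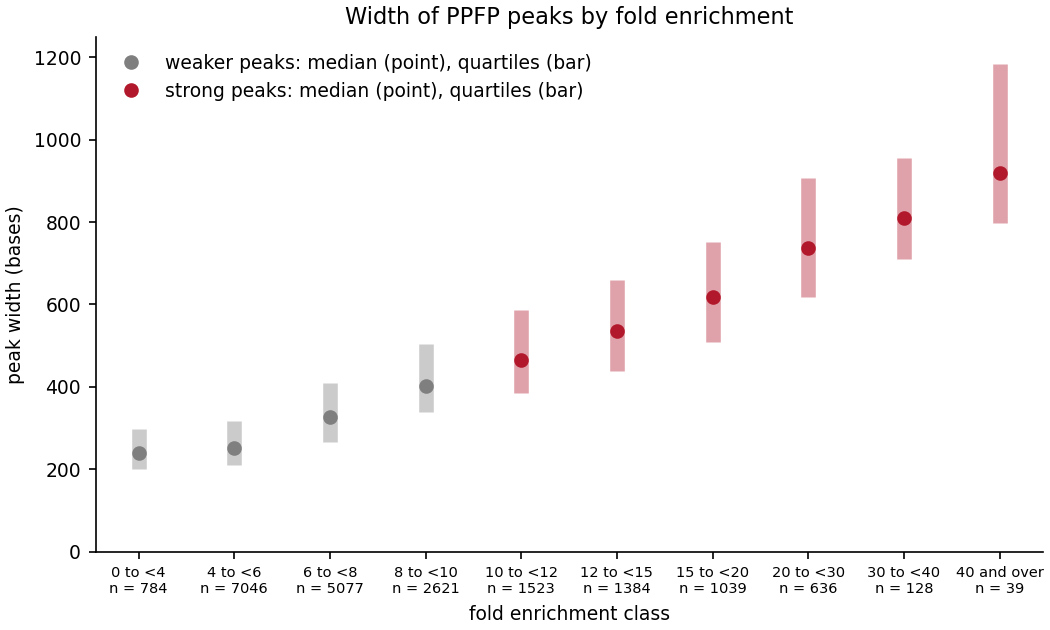
Peak width (bases) by class of fold enrichment, with the median as a point and the quartiles as a bar, weaker peaks in gray and strong peaks in red, n under each class. The median climbs from 240 bases below a fold of 4 to 401 just under the threshold, 466 just above it and 919 at a fold of 40 or more.

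The difference in width was smaller between peaks of like pileup. With 17 to 19 reads at the summit the median was 394 bases in 231 strong peaks (377 to 416) and 364 in 1909 weaker peaks (359 to 370). The medians were 440 and 408 bases with 20 to 24 reads, 497.5 and 465 with 25 to 29, and 555 and 500 with 30 to 39. With 40 to 59 reads it was 658 bases in 1080 strong peaks (646 to 673) and 508 in 27 weaker peaks (406 to 591). In these groups the background differed by construction, with medians of 0.885 and 1.51 in the lowest and 1.77 and 4.87 in the highest. Conversely, 2454 peaks shared the median background of 1.32785, and the 540 strong peaks among them had a median width of 551 bases against 302.5.

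The widest strong peak was chr20:9376723-9379114 with 2392 bases and a fold of 28.9, then chr1:120906390-120908661 with 2272 bases and chr10:84532039-84534142 with 2104. None of the 3 was among the 10 largest folds. The narrowest were chr5:155612250-155612480 with 231 bases, chr5:26344090-26344321 with 232 and chrX:58972749-58972987 with 239. Their folds were 10.1, 12.2 and 11.03, their pileups 18 to 22 reads and their backgrounds 0.723 to 0.890.

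The summit was central more often in strong peaks. With each peak divided into 3 equal stretches, the summit fell in the middle one in 84.1% of strong peaks (95% exact binomial interval 83.0 to 85.1) and in 71.8% of weaker peaks (71.1 to 72.5). In the weaker peaks with a fold of 8 to 10 it did so in 84.7%, and below a fold of 4 in 49.0%. The strong classes were between 83.3% and 84.4% up to a fold of 40, and the 39 peaks above it were at 97.4% (86.5 to 99.9).

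The spacing of summits was not used to choose the peaks. Strong summits had more close neighbors than weaker summits had. Any other PPFP summit was within 10 kb of 49.5% of strong summits (48.1 to 50.9) and of 41.6% of weaker summits (40.8 to 42.4). The difference was 7.90 percentage points (6.27 to 9.53, combined from the exact bounds). Nearness is mutual and both sets share neighbors, while the intervals take peaks as independent, so they can be too narrow. A strong summit was within 10 kb of 18.5% of strong summits (17.4 to 19.6) and of 15.2% of weaker summits (14.6 to 15.8), a difference of 3.29 points (2.05 to 4.55). The median distance to the nearest summit was 10369 bases (9593 to 11182) for strong and 15262 (14755 to 15827) for weaker peaks.

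These differences depended on how the fold was defined. With the pileup divided by the background without the added 1, an alternative chosen after the data were examined, and the threshold kept at 10, the set grew to 12544 peaks and both turned around, to -3.52 and -2.18 points. With the 4749 peaks of largest fold on that scale, 4215 of which (88.8%) were strong peaks, they were 4.63 and 1.93 points. With a pileup of at least 25 reads in place of the fold, also chosen after the data were examined, they were 11.6 and 6.91 points. Where background was held at the common value of 1.32785, 47.8% of 540 strong summits (43.5 to 52.1) and 38.1% of 1914 weaker summits (36.0 to 40.4) had a neighbor within 10 kb. For a strong neighbor the shares were then 18.1% (15.0 to 21.7) and 14.1% (12.5 to 15.7), whose intervals overlap.

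On every one of the 21 chromosomes, strong summits had the higher share with any neighbor within 10 kb, the shorter median distance to the nearest summit and the greater median width. The share with a strong neighbor was higher on 15 of the 21. Peaks of 1 library share that library's depth and alignment, so agreement between chromosomes is not replication.

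The neighbors of strong summits lay mostly beyond 1 kb. Within 500 bases, 1.09% of strong summits (0.819 to 1.43) and 2.94% of weaker summits (2.68 to 3.21) had another summit, and within 1 kb the shares were 9.90% and 10.4%. Strong peaks are themselves wider than 500 bases at the median, and no peaks in the list overlap. From 2 kb on, strong summits had the larger share, with 20.9% against 17.8% at 2 kb, 36.1% against 29.4% at 5 kb and 82.2% against 75.2% at 50 kb.

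Counted as a density, other summits were found at 91.2 per Mb between 500 bases and 1 kb from a strong summit. The density fell to 67.9 per Mb between 1 and 2 kb, 40.5 between 2 and 5 kb and 12.9 between 100 and 500 kb. Around weaker summits it was 78.9, 46.1, 31.5 and 12.3 per Mb over the same distances. The gap between the sets was thus larger between 500 bases and 5 kb than at the longest distance.

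The share of neighbors that were themselves strong was close in both sets. The nearest summit was a strong one for 24.5% of strong summits (23.3 to 25.8) and for 24.2% of weaker summits (23.6 to 24.9), close to the 23.4% of the list. Within the strong peaks, the share with any summit within 10 kb was 44.6% at a fold of 10 to 12, 49.6% at 12 to 15, 52.8% at 15 to 20 and 53.6% at 20 to 30. It was 57.8% (48.8 to 66.5) at 30 to 40 and 53.8% (37.2 to 69.9) at 40 or above, where the intervals are wide. The weaker peaks showed no such climb, with 48.0% below a fold of 4, 42.1% at 4 to 6, 39.6% at 6 to 8 and 42.1% at 8 to 10.

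**Figure D3:**
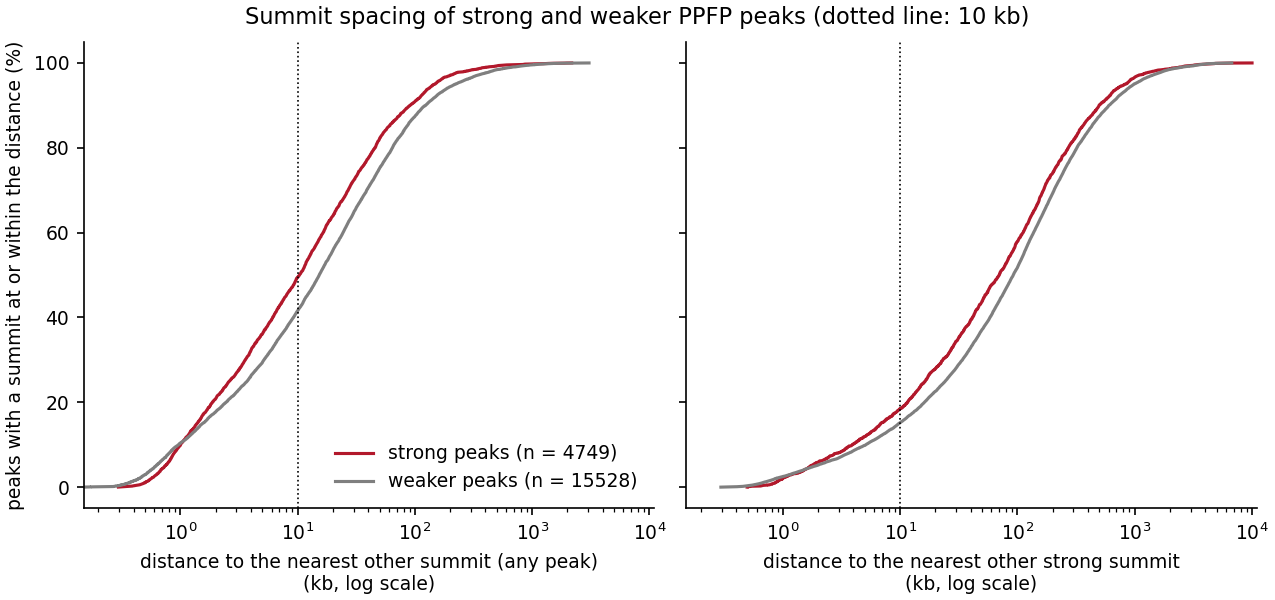
Cumulative share of strong (red) and weaker (gray) PPFP summits with another summit at or within a distance (kb, log scale), for any peak on the left and strong peaks on the right. At the dotted line of 10 kb the curves stand at 49.5% and 41.6% on the left and at 18.5% and 15.2% on the right, and on the left they cross near 1 kb.

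Strong summits were mostly alone among strong summits. Joined wherever 2 followed each other within 10 kb, 3871 (81.5%) had no partner, and the other 878 formed 404 runs. Of these, 350 were pairs, 45 had 3 summits, 5 had 4, 3 had 5 and 1 had 8.

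The run with the most strong summits, chr1:219266900-219291639, held 8 strong summits over 24132 bases with folds of 11.1 to 21.8, and 1 weaker summit at 3.73. The pileups of its strong summits were between 23 and 69 reads over backgrounds of 1.17 to 2.66. Runs of 5 were at chr6:99168842-99190933, with folds of 10.7 to 26.0 and 1 weaker summit between, and at chr13:44647778-44665584, with folds of 12.6 to 19.8 and also 1 weaker summit between. Another run of 5, chr1:192182027-192193032, spanned 10581 bases with folds of 10.3 to 15.5. None of the 10 largest folds was in these 4 runs.

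**Figure D4:**
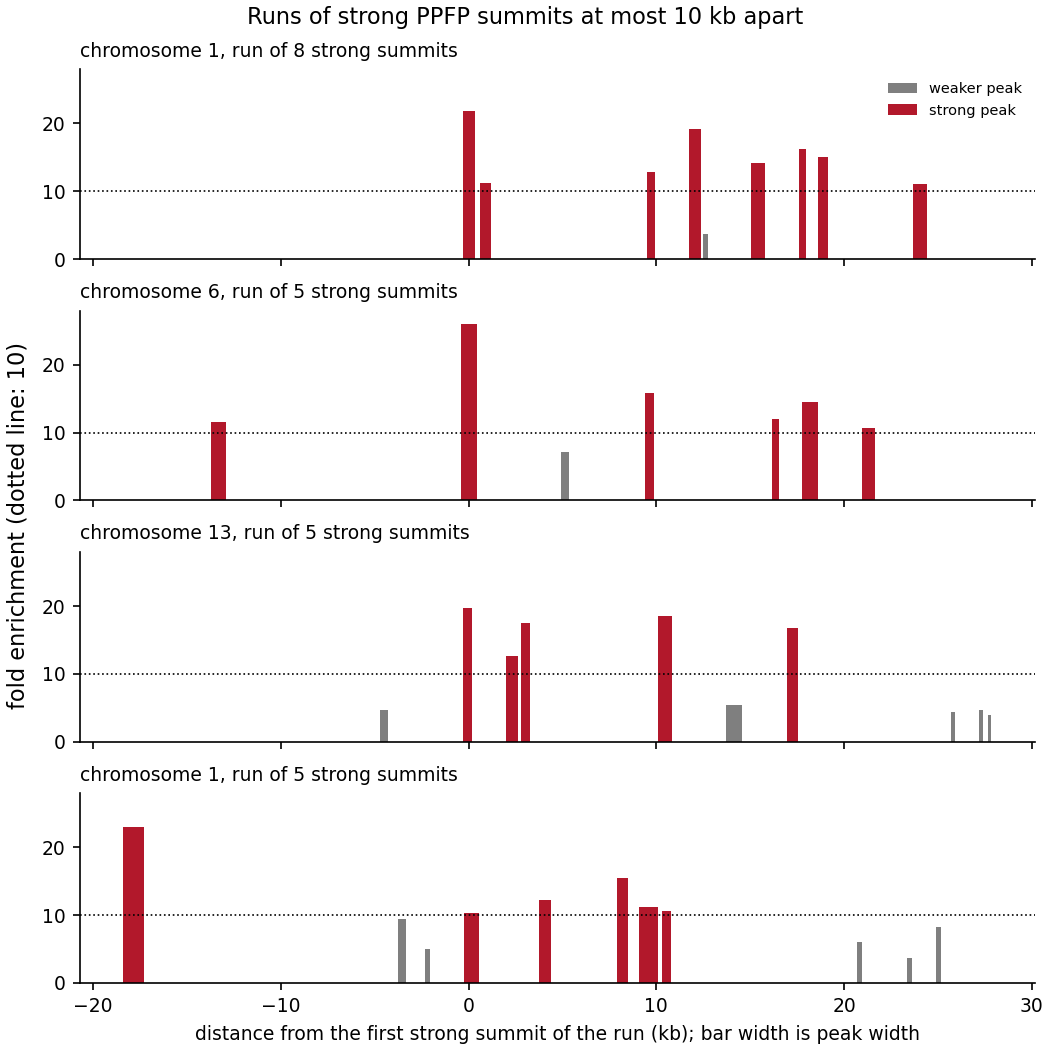
Fold enrichment of PPFP peaks along the 4 runs with the most strong summits, by distance from the first strong summit of the run (kb), with bar width equal to peak width, strong peaks in red and weaker peaks in gray. The run of 8 on chromosome 1 has folds of 11.1 to 21.8 and a single weaker peak, and a further strong peak outside the 10 kb step stands to the left of the runs on chromosome 6 and, in the lowest panel, chromosome 1.

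Between successive strong summits the median gap was 185592 bases. Of 4728 gaps, 474 were at most 10 kb, 657 were over 1 Mb, and 1140 (24.1%) held no weaker summit. The longest, on chromosome 15 from base 87533559 to base 103566202, was 16032643 bases and held 12 weaker summits. The next, on chromosome X, was 14607109 bases and held 17. The genome fell into 2714 windows of 1 Mb, of which 1623 (59.8%) held a strong summit and 25 held 10 or more. The densest were chr7:96000001-97000000 with 13 strong of 27 peaks and chr1:180000001-181000000 with 13 of 21. The 271 windows richest in strong peaks held 39.1% of them, and the 271 richest in weaker peaks held 30.3% of those, although a rarer class fills fewer windows by number alone.

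Strong peaks lay on all 21 chromosomes, with shares of each chromosome's peaks between 19.5% and 25.7%. The strong share was highest on chromosome 20 with 25.7% (21.8 to 29.99), chromosome 6 with 25.1% (22.6 to 27.6) and chromosome 7 with 24.8% (22.5 to 27.1). It was lowest on chromosome X with 19.5% (15.6 to 23.9), chromosome 14 with 21.2% (18.2 to 24.5) and chromosome 5 with 21.9% (19.6 to 24.4). None of the 21 intervals left out the share of the whole list at this threshold. At a threshold of 20, chromosome 20 had a share of 7.03% (4.86 to 9.78), above the 3.96% of the list, and X had 2.44% (1.12 to 4.58). Only these chromosomes, picked as the highest and lowest at a fold of 10, were computed at 20. Their peaks are part of the same set, so nothing is read from these shares.

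The density of strong peaks varied far more. Between the first and last peak of each chromosome there were 2.94 strong peaks per Mb on chromosome 10, 2.51 on chromosome 7 and 2.38 on chromosome 12, against 1.17 on chromosome 15 and 0.451 on chromosome X, and 1.76 over all. Chromosome 10 was thus 6.52-fold denser than X and 2.51-fold denser than chromosome 15. The weaker peaks followed nearly the same order, with a Spearman rho of 0.984 between the densities across 21 chromosomes, which share 1 library and its depth.

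The background moved with the chromosome, and its part in these densities was not tested. At strong summits its median was 0.723 on X, the lowest value in the list. That lowest value was shared by 1232 of the 20277 peaks (6.08%), and it was also the median at the weaker summits of X. Elsewhere the median at strong summits was 1.07 on chromosomes 14, 15 and 18, 1.77 on chromosomes 10 and 11 and 1.96 on chromosome 7. The median pileup of strong peaks was 22 reads on X, 40 on chromosome 10 and 43 on chromosome 7. The median fold was 12.4 on X and 14.2 on chromosome 7. The 72 strong peaks of X therefore rested on fewer reads, and with a threshold of 25 reads in place of the fold, chosen after the data were examined, the X share was 7.32% (4.88 to 10.5). With the same number of peaks ranked by fold without the added 1, it was 30.1% (25.4 to 35.04).

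**Figure D5:**
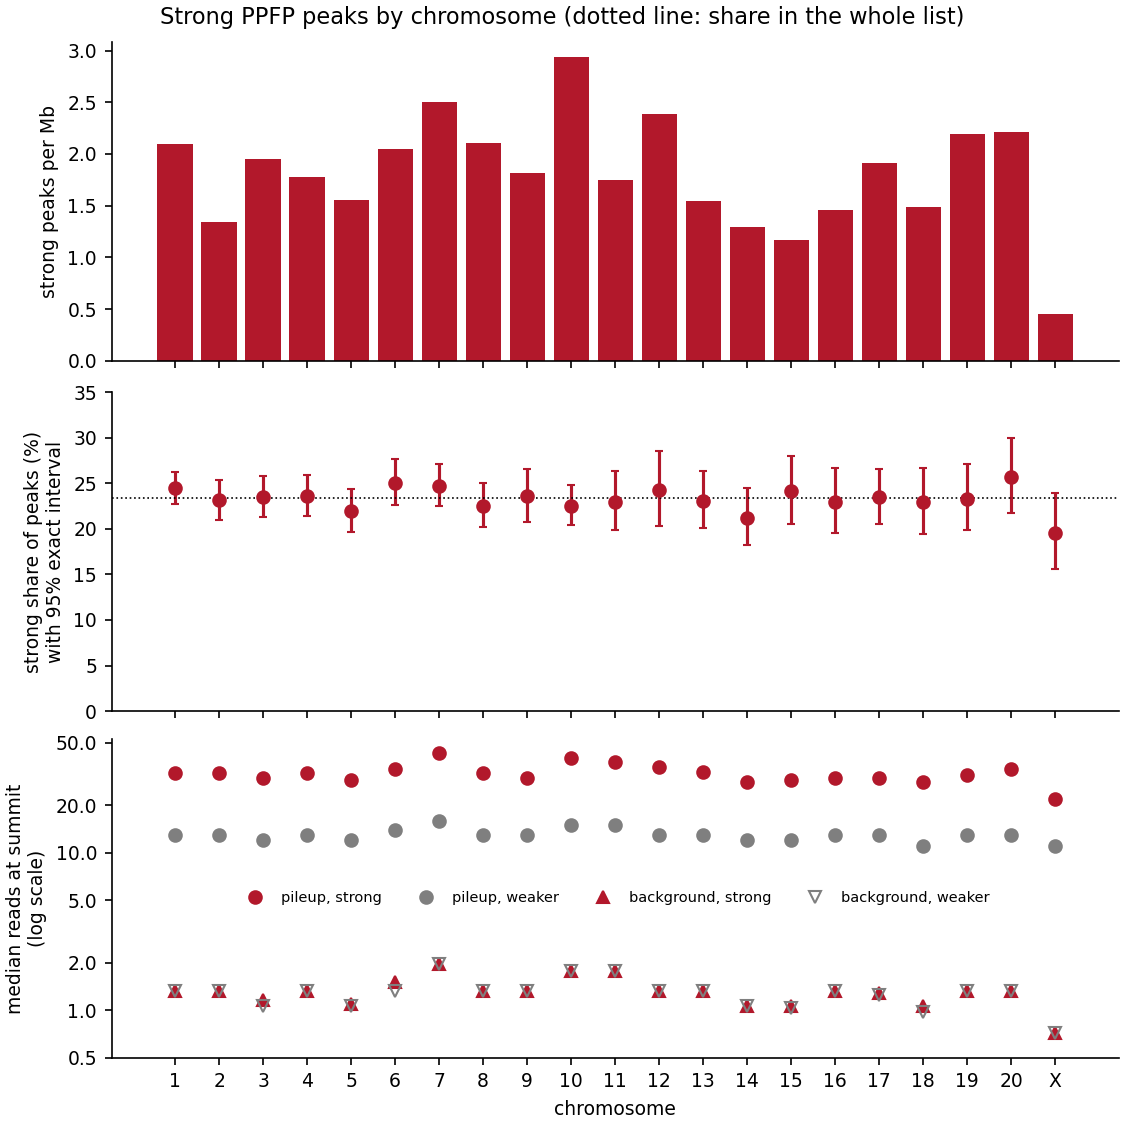
Strong PPFP peaks by chromosome, as peaks per Mb (top), share of the chromosome's peaks with exact 95% interval (middle) and median pileup and background at the summit (reads, log scale, bottom). Density runs from 0.451 per Mb on X to 2.94 on chromosome 10, while every interval of the share at this threshold includes the dotted 23.4% of the whole list.

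Strong peaks seldom met peaks called in input DNA. Of the 3192 input peaks, which had a median width of 69 bases, few shared a base with the PPFP list. They met 3 strong peaks (0.0632%, 0.0130 to 0.185) and 5 weaker peaks (0.0322%, 0.0105 to 0.0751), and these intervals overlap. With a threshold of 25 reads in place of the fold, all 8 were in the strong set (0.178%, 0.0767 to 0.350) and 0 in the weaker set (0 to 0.0234%), and the intervals did not overlap. Input is the background of the fold, so a peak over a high background needs more reads to be called. The 8 lay over backgrounds of 3.65 to 39.4, so this split largely follows from the threshold and nothing is read from it. The 3 strong peaks were chr15:4838126-4838841 with a fold of 26.3, chr6:93609780-93611319 with 18.6 and chr17:96945296-96946251 with 17.5. Their backgrounds were 3.65, 6.64 and 4.72 reads, all above the 90th percentile of strong peaks, 2.21. Leaving out all 8 peaks changed no other value beyond its interval, but 8 of 20277 peaks are too few to do so.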

How the data were processed

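ChIP and input DNA of PPFP cells were sequenced once each. Per the submitters' processing notes and the study's methods, the authors aligned reads to rn4 with BWA 0.5.9-r16, called peaks with MACS2 at a q value cutoff and filtered the PPFP list with PePr. The deposited list runs to peak number 22048, and 1771 numbers are missing. Its 8th field is the authors' fold enrichment (a ratio), followed by deposited −log10 p and −log10 q values. The widths and summit offsets, in bases, are also the authors'. For RNA, the authors deposited counts per gene (TopHat2 2.0.11, HTSeq 0.6.1p1), scaled here to CPM of each library's total. The settings behind the input list are not given in the sources used here. The study's methods state the reads sequenced for ChIP and input, which were not used here. The number of aligned reads behind the pileups was not analysed.

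Strong peaks had a fold of at least 10. Pileup (whole reads) and background were solved from fold = (pileup + 1) / (background + 1) and the Poisson p, to within 0.0005 in −log10 p, and the code was tested on simulated data. Distances are between summits on the same chromosome. Shares have exact (Clopper-Pearson) and medians order-statistic 95% intervals. With 1 ChIP library no test was run and no p value is given. Reads are not independent molecules, so intervals cover counting error only. Neighboring peaks are not independent of each other either, so the intervals of the spacing shares can be too narrow. Scripts ran in Python 3.11.15 with scipy 1.17.1, pandas 2.3.3 and numpy 2.4.6, and matplotlib 3.10.9 drew the figures.

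Regions named were the 10 largest folds, 3 on either side of the threshold, the 3 widest and 3 narrowest, the 3 runs with the most strong summits, strong peaks that met an input peak, and the chromosomes with the 3 highest and lowest shares. The fourth run, the densest windows, the longest gaps and other named values were added after the values were seen. Members, marker lists and tests were chosen with earlier results of these data known. Alternatives were thresholds of 8 and 20, a q under 0.01, input overlaps left out, 1 summit for each set of overlapping peaks, chromosomes only, distances between edges, windows of 5 and 50 kb, overlap of a larger part, and the 9th field. A fold without the pseudocount of 1, the same number of peaks on that scale, and a pileup of 25 reads were added after the data were examined. Genes beside peaks and peak sequences were not analysed here, since no rn4 genome or annotation was used.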

Additional observations from a re-analysis of the deposited data

How the results depend on the processing

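No peaks overlap and all lie on the 21 chromosomes, so 1 summit for each set of overlapping peaks and chromosomes only left the list as it was and show nothing of its stability. Distances between peak edges and overlap of a larger part moved no value beyond its 95% interval. A q under 0.01 kept all 4749 strong and 15472 of the 15528 weaker peaks and also moved none. Leaving out the 8 peaks that met input peaks moved only that overlap, to 0. Both settings removed too few peaks to move the other values, so they show little of stability. A threshold of 8 gave 7370 peaks with a median width of 502 bases, a pileup of 27 reads, 32.2% strong on X (36.3% in the list) and a difference of 5.39 points in the share with any summit within 10 kb. A threshold of 20 gave 803 peaks, 759 bases, 60 reads over a background of 1.33, 2.44% on X and 7.03% on chromosome 20 (3.96% in the list), and differences of 11.3 points for any summit and 1.53 for a strong one. In a window of 50 kb the difference for a strong summit was 6.65 points. A −log10 p of at least 10 in place of the fold gave 12172 peaks.

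The other alternatives were chosen after the data were examined. A fold of 10 without the pseudocount gave 12544 peaks, 404 bases, 19 reads over 1.19, 84.8% on X (61.9% in the list), and reversed differences of -3.52 points for any summit and -2.18 for a strong one. The same number of peaks on that scale had 545 bases, 31 reads over 1.25, 30.1% on X (23.4% in the list) and differences of 4.63 and 1.93 points. A pileup of at least 25 reads gave 4506 peaks, 3738 of them strong, with 578 bases, 34 reads over 1.69, 7.32% on X (22.2% in the list) and differences of 11.6 and 6.91 points. Strong peaks were wider than the rest in each of these sets.

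No paired analysis was possible because the values come from 1 ChIP library and no test. The alternatives for genes beside strong peaks (DESeq2, no filter, the replicate block, leave-one-out) were not run, since peaks were not tied to genes. A single ChIP library without a tag control gives no measure of how folds vary between cultures.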

Other observations

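The strong peaks over the highest backgrounds, chosen after their values were seen, lay together near the start of chromosome 3. The peak at chr3:361696-362702 had 259 reads, the largest pileup in the list, over a background of 15.5 and a fold of 15.8. The peak at chr3:656900-657827 had 179 reads over 9.74 and a fold of 16.8, and the one at chr3:757891-759167 had 196 reads over 7.92 and a fold of 22.1. Each had another summit within 1171 bases or less. None of the 3 met a peak called in input DNA.

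The strong peaks farthest from any other PPFP summit were also chosen after their values were seen. The peak at chr14:50758812-50759158 had 23 reads, chr5:111604614-111605024 had 22 and chr2:132649140-132649643 had 28, with folds of 10.3, 11.6 and 12.5 and widths of 347, 411 and 504 bases. The strong peaks farthest from another strong summit were other sites, chr11:3532078-3532657, chr15:74789822-74790175 and chrX:15330886-15331483. They had 29, 18 and 29 reads, folds of 16.5, 11.03 and 15.9 and widths of 580, 354 and 598 bases.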
